A study of Mus musculus with 25 samples.

Results

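Joins captured at a Tus-bound replication fork barrier were compared with joins captured at a nuclease-cut break, in the same cells and at the same place in the genome. All junctions listed for the Tus group and the I-SceI group were taken, 1326 with Tus and 1702 with I-SceI, which makes 3028 of the 11867 junctions listed for the series. Both groups were mouse embryonic stem cells of the genotype written BRCA1del/exon11, carrying a 4 kb cassette called 1xGFP in the ROSA26 locus. They were grown on a mouse embryonic fibroblast feeder layer and transfected with the effector and an siRNA against FANCM. Genomic DNA was taken 48 h later. A further group of the same genotype and siRNA received the control labelled EV in place of an effector, and it serves as the background. No group with wild-type BRCA1, and no group without FANCM depletion, enters this comparison. The labels list 3 samples for Tus, 2 for I-SceI and 2 for EV.

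Tus is a bacterial protein that binds Ter elements and stops a replication fork that arrives from the blocking side. I-SceI is a yeast homing endonuclease that cuts both strands of its long recognition site, leaves 3′ overhangs and exposes a pair of ends. FANCM is a DNA translocase that remodels stalled forks, and BRCA1 promotes homologous recombination at breaks and at stalled forks. In LAM-HTGTS, a translocation sequencing assay, a Cas9 cut provides a known end, called the bait, and any DNA joined to it, called the prey, is read from a primer beside the bait. Here the bait cut lay 30 kb from the cassette. A join can be blunt, can carry inserted bases, or can share bases between bait and prey, called microhomology, which is the usual trace of alternative end joining.

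The cassette holds 6 Ter elements followed by an I-SceI site. Positions are 1-based coordinates of the cassette as the tables list them, not of a genome build. Ter 1 lay at 3048 to 3070, Ter 2 at 3076 to 3098 and Ter 3 at 3104 to 3126. After a longer gap, Ter 4 lay at 3166 to 3188, Ter 5 at 3194 to 3216 and Ter 6 at 3222 to 3244. The I-SceI site lay at 3260 to 3277. The sequences below are shown because the joins described later begin inside them. In the I-SceI site the capitals mark the 4-base overhang, at 3265 to 3268.
Ter element: aataagtatgttgtaactaaagt
I-SceI site: tagggATAAcagggtaat

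Prey that ran from the junction toward position 1 is called leftward, and prey that ran toward the far end is called rightward. The array window covers 3024 to 3277, from just before Ter 1 to the end of the I-SceI site. The cassette body covers 1 to 3616, and the polyA region beyond it is treated separately. Read names carry a sequencing run, and each run of a table was taken as 1 library, here A, C and D for Tus and A and C for I-SceI. Tus libraries held 686, 492 and 148 junctions and I-SceI libraries 801 and 901. The polyA region was joined in all groups, and held 502 of 1326 junctions with Tus, 559 of 1702 with I-SceI and 463 of 468 with EV. Position 3910, leftward, held 15.5% of polyA joins with Tus, 22.4% with I-SceI and 19.4% with EV. Only 5 of 468 EV junctions lay in the body, and 1 of those lay in the array, so background joins of this kind were few beside the 824 body joins with Tus and 1143 with I-SceI. Body joins made up 59.5%, 64.8% and 65.5% of junctions in the Tus libraries and 63.8% and 70.1% in the I-SceI libraries. The shares overlapped between effectors (difference -5.01 points, adjusted p = 0.0077 by Fisher's exact test; p = 0.60 by exact permutation of libraries), and the difference was -2.16 points without Tus library A and -1.65 points without I-SceI library C, neither of which passed. With each position and orientation counted once per library it turned to 10.6 points and passed (adjusted p = 0.000327 by Fisher's exact test). With joins of the same position, orientation, far end and bait end counted once it was -5.87 points, and p by exact permutation of libraries was 0.10.

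Both effectors directed most body joins to the array, but the prey ran rightward less often with Tus than with I-SceI. With Tus, 604 array joins were leftward and 84 rightward. With I-SceI, 455 were leftward and 378 rightward. The rightward share of all body joins was 20.8% in Tus library A, 9.72% in C and 7.22% in D, against 51.9% and 55.4% in I-SceI libraries A and C. The mean over libraries was 12.6% ± 7.25 (SD, n = 3) with Tus and 53.6% ± 2.49 (SD, n = 2) with I-SceI. The Tus libraries all lay below the I-SceI libraries, by -38.9 points on pooled joins (95% interval -42.5 to -35.0; adjusted p = 1.57e-72 by Fisher's exact test; p = 0.10 by exact permutation of libraries, the smallest that 3 against 2 libraries allow). Within run A the difference was -31.0 points and within run C -45.7 points. Tus library A stood above the other Tus libraries, and it supplied 64 of the 84 rightward array joins of that effector. With each position and orientation counted once per library, the difference in body joins was -20.9 points (adjusted p = 8.24e-10 by Fisher's exact test; p = 0.20 by exact permutation of libraries). Among array joins alone the rightward difference was -33.2 points, but it was -5.36 points and did not pass with positions counted once. It turned to 6.09 points, short of the threshold, when the window stopped at the end of Ter 6 and so dropped the I-SceI site.

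The flanks of the array differed as well. Right of the array, between the I-SceI site and the end of the body, lay 1.23%, 0.940% and 1.03% of body joins in the Tus libraries and 18.4% and 22.9% in the I-SceI libraries (difference of pooled shares -19.8 points, adjusted p = 2.75e-48 by Fisher's exact test; p = 0.10 by exact permutation of libraries). With I-SceI these were mainly rightward joins next to the cut: 197 of 204 lay within 100 bp of the site, at a median distance of 6 bp. Left of the array the order was opposite. That stretch held 14.5%, 13.5% and 25.8% of body joins in the Tus libraries and 4.50% and 7.59% in the I-SceI libraries (9.20 points, adjusted p = 1.05e-10 by Fisher's exact test; p = 0.10 by exact permutation of libraries). With each position and orientation counted once per library, the left-of-array difference of 1.66 points fell short of the threshold. With the array window started 100 bp before Ter 1 it was 3.37 points (adjusted p = 0.00674 by Fisher's exact test; p = 0.30 by exact permutation of libraries).

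**Figure D1:**
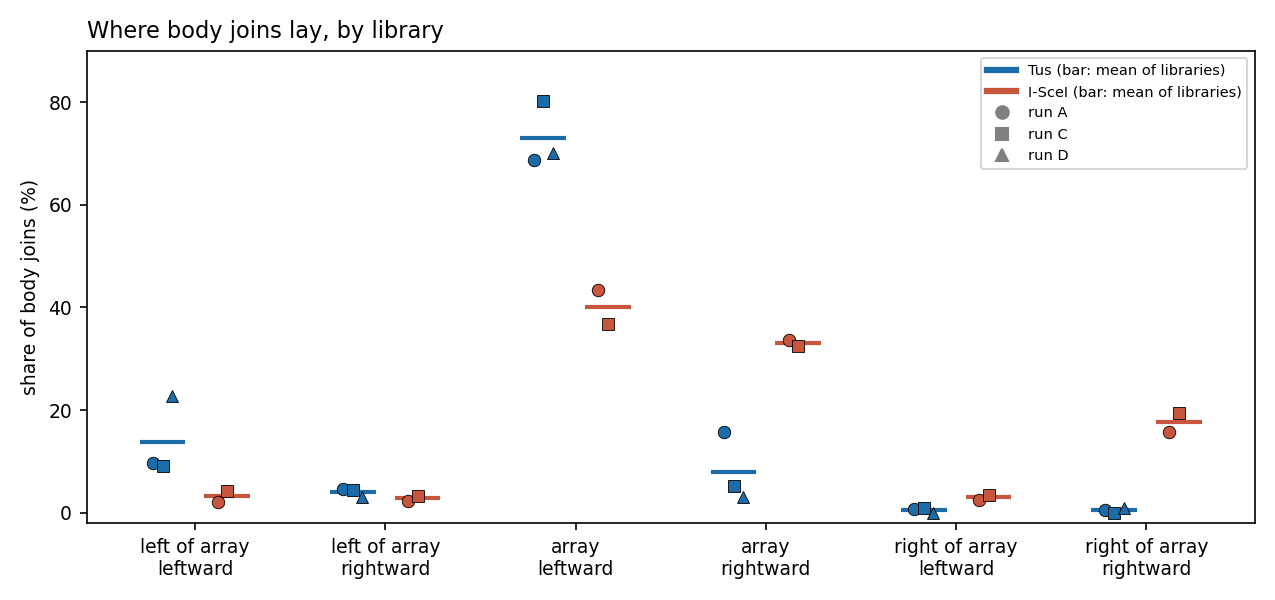
Share of body joins (%, y axis) by place and prey orientation (x axis) for each library, with circles for run A, squares for run C, triangles for run D and a bar at the mean of the libraries. The leftward array column holds most Tus joins, and the right-of-array rightward column holds I-SceI joins almost alone.

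Among the joins left of the array, 32.2%, 32.6% and 12% were rightward in the Tus libraries and 52.2% and 43.8% in the I-SceI libraries. The pooled difference was -18.1 points (adjusted p = 0.0171 by Fisher's exact test; p = 0.10 by exact permutation of libraries). It rested on joins close to the array. Of the 91 leftward Tus joins there, 54 lay within 100 bp of the array, at a median distance of 59 bp, while the 36 rightward ones had a median distance of 1065 bp. With I-SceI, 8 of 38 leftward and 5 of 33 rightward joins lay within 100 bp. When the array window was started 100 bp before Ter 1 the difference in orientation fell short of the threshold (-1.85 points), as it did without Tus library D (-14.1 points) or without I-SceI library A (-15.4) or C (-23.8).

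Within the array, leftward Tus joins were densest at the first Ter element and thinned out across each group of 3 elements, apart from 3 and 4 joins in Ter 5 and Ter 6 of library D. By element they numbered 182 in Ter 1, 84 in Ter 2 and 36 in Ter 3, then 82 in Ter 4, 43 in Ter 5 and 11 in Ter 6. A further 69 lay in the array before Ter 1, and 2 lay beyond Ter 6. Library A gave 71, 39, 19, 40, 24 and 6 joins for Ter 1 to Ter 6, library C gave 95, 32, 14, 30, 16 and 1, and library D gave 16, 13, 3, 12, 3 and 4. Ter 1 had the highest count in each of the 3 libraries, and Ter 4 had more than Ter 3 in each. The array up to the end of Ter 3 held 66.4%, 71.1% and 60.3% of leftward array joins. The array is built from a pair of 116-bp copies that repeat every 117 bp, so Ter 4 to Ter 6 sit in the same surroundings as Ter 1 to Ter 3. Of the 82 joins in Ter 4, 80 matched their listed copy by at least 8 bases more than the other copy, and 26 were read through to at least 20 bp of unique sequence left of the array.

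Rightward Tus joins had the opposite distribution. Ter 6 held 31 and Ter 5 held 18 of the 84, whereas Ter 1 held 4. Ter 5 to Ter 6 together held 40 of 64 in library A, 9 of 17 in C and 2 of 3 in D. The leftward quartiles of position were 3059 and 3167 and the rightward ones 3117 and 3232, so the orientations overlapped in the middle of the array. In the stretch from Ter 1 to Ter 6, 438 of 533 leftward Tus joins (82.2%) began inside a Ter element, and elements make up 70.1% of that stretch. This was not particular to Tus: with I-SceI, 106 of 117 leftward joins there (90.6%) did so, 86 of them in Ter 6. Leftward Tus joins began at all 23 bases of the element, from 9 joins at its least used bases to 31 at base 18, counted from its left end.

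I-SceI joins were tied to the cut. Leftward joins numbered 176 in the I-SceI site, 159 between Ter 6 and the site, and 86 in Ter 6, but only 9 in the array up to the end of Ter 3. Rightward joins numbered 371 in the site. The leftward median lay at 3258 in library A and 3253 in C, and the rightward median at 3268 in both. Across the array window the upstream Ter elements were thus almost free of I-SceI joins: Ter 1, Ter 2 and Ter 3 held 2, 3 and 0 leftward joins, against 182, 84 and 36 with Tus.

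**Figure D2:**
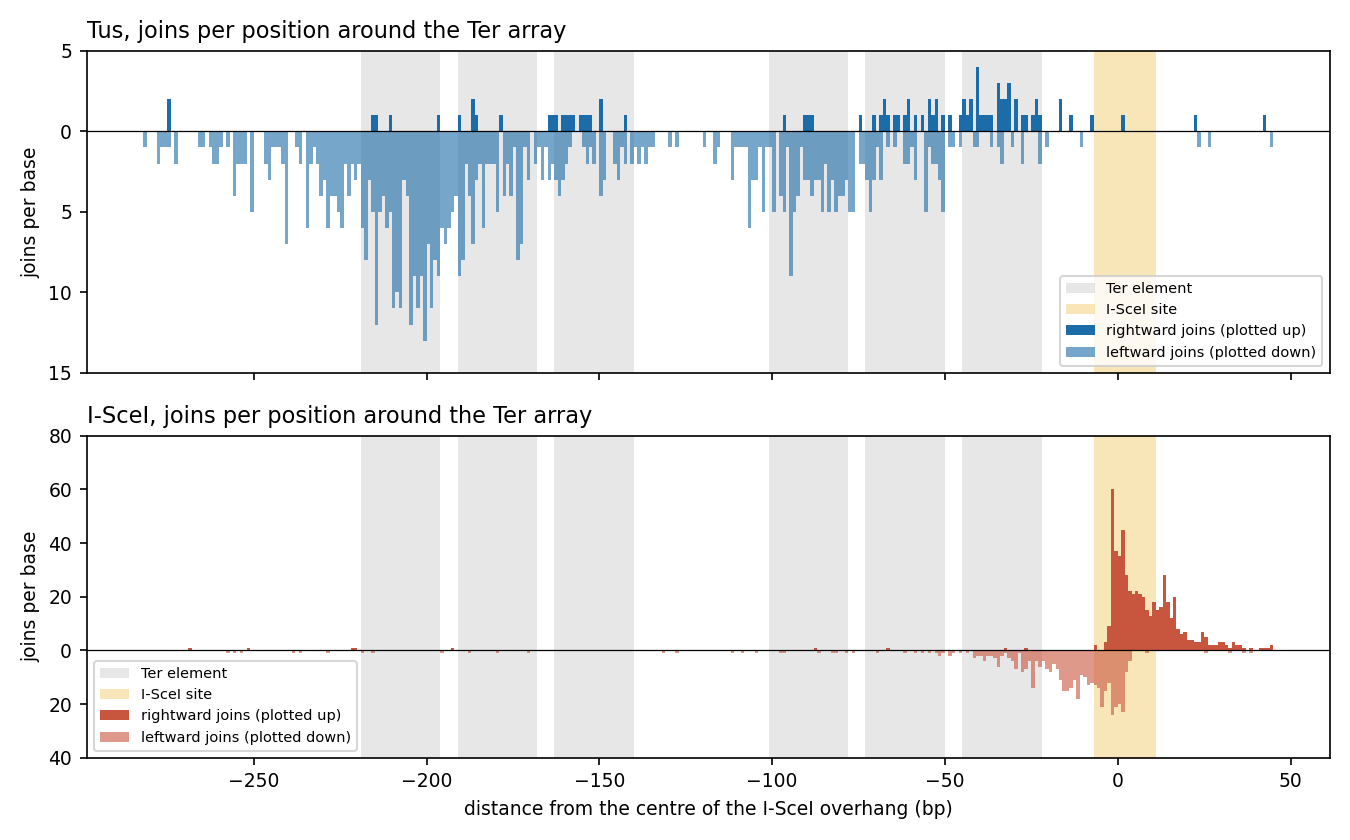
Joins per base (y axis, rightward joins plotted up and leftward joins down, with a different scale for each effector) against the distance in bp from the centre of the I-SceI overhang, with Ter elements in grey and the I-SceI site in yellow. Tus joins spread over the elements, with leftward joins highest at Ter 1, and I-SceI joins pile up at the site with rightward joins to its right and leftward joins to its left.

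I-SceI joins were more concentrated on a few positions than Tus joins. Over the body, Tus joins used 347 combinations of position and orientation, 189 of them once, and I-SceI joins used 255, of which 164 were used once. With Tus, the 5 most used combinations of position and orientation were all leftward and all in Ter 1: 3066 with 13 joins, 3052 and 3062 with 12 each, and 3057 and 3059 with 11 each. Positions 3064 and 3068 in the same element also held 11. The first 5 made up 7.16% of body joins. With I-SceI the 5 most used were all rightward: 3265 with 60 joins, 3268 with 45, 3266 with 37, 3267 with 35 and 3269 with 28, tied with 3280. These made up 17.9% of body joins and cover the 4 bases of the overhang and the base after it. Scaled to 68 leftward array joins per library, the number of distinct positions expected was 55.5, 52.2 and 59.0 in the Tus libraries and 33.5 and 38.1 in the I-SceI libraries. The libraries of each effector lay apart from those of the other.

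Bases lost from the I-SceI ends were counted from where joins began. Joins were assigned to an end by orientation and position alone, so a far join counts as a long loss by assumption. The left end is captured in leftward joins and, whole, would begin at 3268. The right end is captured in rightward joins and, whole, would begin at 3265. A base shared with the bait is counted as kept, so losses are lower limits. At the left end 23 of 480 joins (4.79%, Wilson 95% interval 3.21 to 7.09) kept the whole overhang, 65 had lost 1 to 3 bases, 12 had lost exactly the 4 bases, and 203 had lost 5 to 20 bases. The whole overhang was kept in 6.64% in library A and 3.15% in C. At the right end 60 of 561 joins (10.7%, interval 8.40 to 13.5) kept the whole overhang, 117 had lost 1 to 3 bases, 28 had lost 4, and 275 had lost 5 to 20.

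More was lost from the left end than from the right end. The median loss at the left end was 12 bases in library A and 17 in C, and at the right end 7 and 9. Joins within 20 bases of the end made up 69.9% and 57.1% at the left end and 87.2% and 84.3% at the right end. Losses over 250 bases were counted at the left end in 11 of 226 joins in library A and 27 of 254 in C, and at the right end in 0 of 561. The left-end joins with these losses are the leftward joins left of the array. That stretch also held 12 and 21 rightward joins, which cannot be a captured left end. Whether the far leftward joins came from the cut end was not tested. The body ends 339 bp right of the array and polyA joins were kept apart, so the right end offered far less room for long losses. This asymmetry was found on inspection and was not tested. With each position and orientation counted once per library, the whole overhang was kept in 1.30% at the left end and 2.06% at the right end. Joins within 20 bases then made up 27.3% and 43.3%. A whole overhang always begins at the same position, and few positions lie within 20 bases of an end. This count therefore lowers both shares by construction, and it cannot tell repeated joins from separate joins at the same position.

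**Figure D3:**
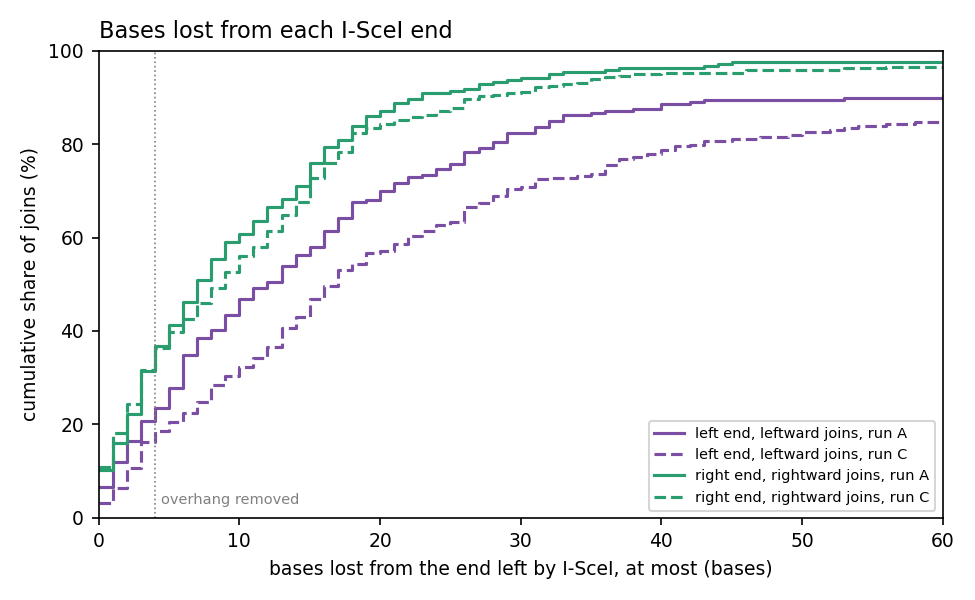
Cumulative share of I-SceI joins (%, y axis) that had lost at most the given number of bases (x axis) from the left end (purple) or the right end (green), with solid lines for run A and dashed lines for run C. Both green lines lie above both purple lines from the overhang onward, and the dotted line marks removal of the 4-base overhang.

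Some I-SceI joins ran the other way, toward the cut rather than away from it. Leftward joins that began right of the site numbered 35, and rightward joins that began left of the site 40. Together they made up 5.28% of body joins in library A and 7.62% in C. Of these 75 reads, 11 crossed the whole site with at least 5 bp on each side, and all 11 carried the site letter for letter. With Tus, 61 of 64 rightward reads that crossed the site carried it letter for letter. The I-SceI joins running toward the site carried microhomology of at least 2 bp in 59.3% and 54.2% of cases in libraries A and C and were blunt in 14.8% and 6.25%. Joins running away from the site, from outside it, carried microhomology in 24.5% and 24.3% and were blunt in 38.4% and 34.5%. For Tus the corresponding microhomology shares were 35.2% toward (of 125 joins) and 36.4% away (of 695). These directions were separated after the values were seen, so no test is given.

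Leftward array joins, the kind that both effectors formed in number, differed in structure over the whole window. Their places differed too, with 334 of 454 I-SceI joins after Ter 6 against 2 of 602 with Tus. Up to the end of Ter 6 blunt shares were 23.8% with Tus and 23.3% with I-SceI, and microhomology shares 35.5% and 33.3%. In the whole window 25.1%, 24.3% and 16.2% of leftward joins were blunt in Tus libraries A, C and D. In I-SceI libraries A and C, 40.5% and 33.2% were blunt. The Tus libraries were all lower, by -13.0 points on pooled joins (interval -18.6 to -7.44; adjusted p = 9.4e-06 by Fisher's exact test; p = 0.10 by exact permutation of libraries). Microhomology of at least 2 bp was present in 34.8%, 32.5% and 50% of the Tus joins and in 21.6% and 20.7% of the I-SceI joins. Here the Tus libraries were all higher, by 14.4 points (interval 8.95 to 19.7; adjusted p = 7.07e-07 by Fisher's exact test; p = 0.10 by exact permutation of libraries). Library D, with 68 such joins, stood above the other Tus libraries, and the run-stratified odds ratio from runs A and C alone was 1.89 (95% interval 1.40 to 2.55).

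The rest of the structure differed less. Insertions of at least 1 base were present in 10.04%, 14.5% and 19.1% of leftward array joins with Tus and 13.1% and 16.8% with I-SceI, and the libraries overlapped (difference -2.02 points, interval -6.36 to 2.16; adjusted p = 0.368 by Fisher's exact test; p = 0.90 by exact permutation of libraries). The bait end had lost 10 bp or more in 46.6%, 49.4% and 52.9% with Tus and in 56.3% and 56.9% with I-SceI (-8.10 points, adjusted p = 0.0161 by Fisher's exact test; p = 0.20 by exact permutation of libraries). That difference did not pass without Tus library A (-6.45 points) or without I-SceI library C (-7.80 points).

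**Figure D4:**
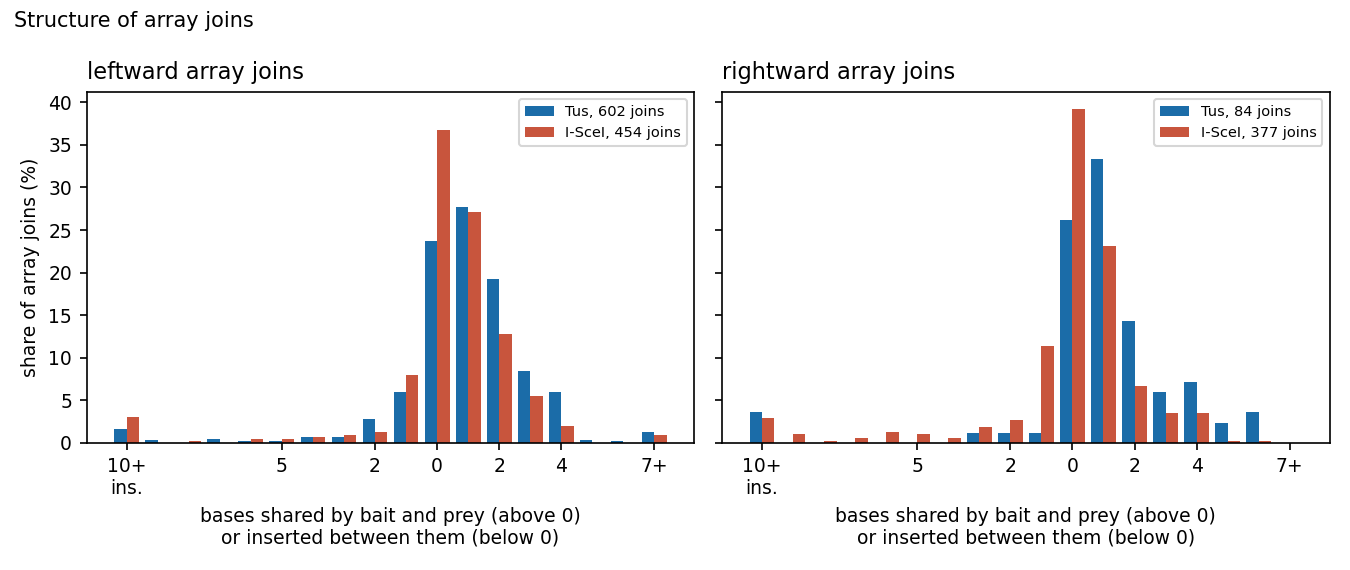
Share of array joins (%, y axis) by the number of bases shared between bait and prey or inserted between them (x axis), for leftward joins on the left and rightward joins on the right, with Tus in blue and I-SceI in red. Blunt joins are the most frequent class with I-SceI, and 1 shared base is the most frequent class with Tus, in both orientations.

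The structure followed the place of the join within each effector. With I-SceI, leftward joins that had lost 5 to 20 bases from the left end were blunt in 47.0% (95 of 202) and carried microhomology in 14.4% (29 of 202). Those that had lost 21 to 50 bases carried microhomology in 30.3% (33 of 109). Those counted as having lost over 250 bases, which may not come from the cut end, carried it in 47.4% (18 of 38). With Tus, leftward joins just before Ter 1 were blunt in 38.2% and carried microhomology in 19.1% of 68, those from Ter 1 to Ter 3 carried it in 35.7% of 339, and those after Ter 3 up to Ter 6 in 40.9% of 193. Between the ends of Ter 3 and Ter 6, where I-SceI gave 111 leftward joins, its microhomology share was 33.3%. There the difference between the effectors was 7.60 points for microhomology and -4.77 points for blunt joins, and neither passed. In a window that stopped at the end of Ter 6 and so dropped the cut, microhomology differed by 2.17 points and blunt joins by 0.50 points, short of the threshold. With each position and orientation counted once per library, microhomology differed by 8.14 points and blunt joins by 0.837 points, again short of it.

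**Figure D5:**
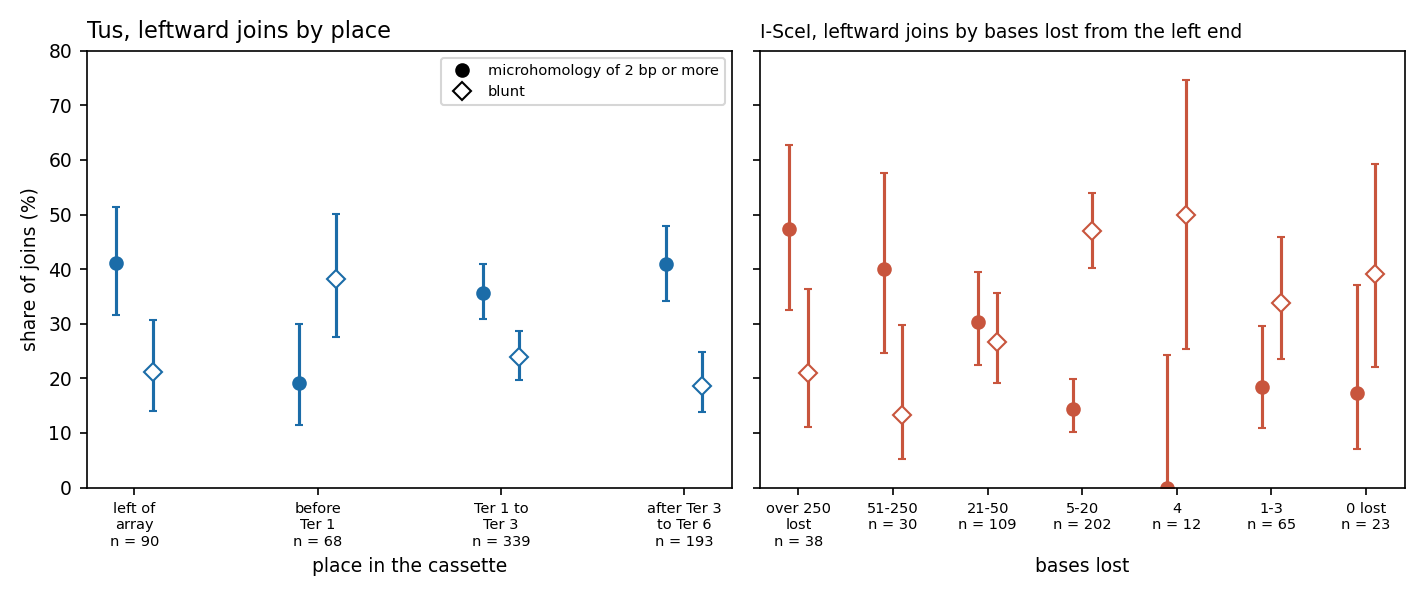
Share of leftward joins (%, y axis) that carried microhomology of at least 2 bp (filled circles) or were blunt (open diamonds), with Wilson 95% intervals, by place in the cassette for Tus (left) and by bases lost from the left end for I-SceI (right). Blunt joins exceed microhomology joins before Ter 1 with Tus and within 20 bases of the cut with I-SceI, and microhomology joins exceed blunt joins in the other groups, with intervals that overlap in several groups of either kind.

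Left of the array no difference in structure passed the test. Microhomology was present in 35.6%, 35.7% and 56.0% of these joins in the Tus libraries and in 60.9% and 45.8% in the I-SceI libraries, and the libraries overlapped (-11.02 points, interval -24.9 to 3.31; adjusted p = 0.166 by Fisher's exact test; p = 0.30 by exact permutation of libraries). Blunt joins made up 23.7%, 21.4% and 16.0% with Tus and 13.0% and 16.7% with I-SceI (5.94 points, interval -6.00 to 16.3; adjusted p = 0.368 by Fisher's exact test; p = 0.30 by exact permutation of libraries). With 126 and 71 joins, the intervals leave room for differences of over 10 points in either measure.

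The most used of the longer microhomologies lay inside the Ter element when Tus was the effector. Of 686 Tus array joins with a called structure 58 shared 4 bp or more with the bait (8.45%), against 28 of 831 with I-SceI (3.37%). By library the share was 8.16%, 6.62% and 16.9% with Tus and 3.81% and 2.97% with I-SceI. In the array up to the end of Ter 6, which leaves out the cut, it was 57 of 679 with Tus (8.39%) and 9 of 127 with I-SceI (7.09%). The sequence ACTT was shared in 17 Tus joins, AGTT in 7 joins, TTTAGTT in 7 joins, AGTA in 4 joins and GTAACT in 3 joins, and all of these began inside a Ter element. Other joins sharing 4 bp or more did not, such as 5 leftward joins between Ter 3 and Ter 4. Most Tus array joins of any structure began inside an element, 438 of 604 leftward and 74 of 84 rightward. The 5 sequences are themselves stretches of the Ter element, so their place was largely given by their sequence. In the element the first 3 lie on the minus strand only and the other 2 on the plus strand only. By construction the first 3 were thus found in leftward joins only and the other 2 in rightward joins only. The shared bases are the last bases kept of the bait, so their sequence largely fixes the bait loss. The bait had lost 3 bases with ACTT, 25 with AGTT, 32 with TTTAGTT, 7 with AGTA and 4 with GTAACT. The last 40 bases of the bait are shown with the Ter element. The stretches shared by leftward joins are in capitals in the bait and in the minus strand, and those shared by rightward joins in capitals in the plus strand. ACTT also occurs near the 3′ end of the minus strand, where it is left in lower case.
bait end: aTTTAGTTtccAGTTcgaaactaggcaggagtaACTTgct
Ter minus strand: ACTTTAGTTacaacatacttatt
Ter plus strand: aataAGTAtgttGTAACTaaagt

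ACTT lies at the 5′ end of the Ter minus strand and again near its 3′ end, and joins at these copies were not told apart. Joins sharing it were found in all 6 elements, with 4, 2, 1, 4, 4 and 2 joins from Ter 1 to Ter 6. They came from library A in 5 cases, from C in 5 and from D, the smallest library, in 7. With I-SceI the most used sequences of 4 bp or more were GTAA with 5 joins and TAAC with 4 joins, both rightward and both inside the I-SceI site. Next came TTTAGTT with 4 joins, all in Ter elements, ACTT with 3 joins, all in Ter 6, and GAAA with 3 joins, between Ter 6 and the site.

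The bait end itself was joined whole in 21.1%, 16.4% and 11.3% of body joins in the Tus libraries and in 12.5% and 12.9% in the I-SceI libraries, which overlapped. The whole bait end was placed by the consensus of these reads, not by a known cut site. Largely by construction, it was the most used bait end with both effectors. With Tus the next was a loss of 3 bases, in 80 of 821 joins, and 46 of those 80 carried microhomology of at least 2 bp. With I-SceI a loss of 3 bases was found in 52 of 1141 joins, of which 9 carried microhomology. Inserted bases were few in number. Of 106 Tus joins with an insertion 44 had 1 base and 17 had over 10, and of 207 I-SceI joins with an insertion 96 had 1 base and 33 had over 10. Where 1 base was inserted at a whole bait end, it was T in 12 of 20 Tus joins and in 24 of 43 I-SceI joins, and A in 3 and 15. The genomic base that follows the consensus bait end is not known, so some of these may be bait bases and not insertions. Of the 20 I-SceI insertions of 15 bases or more, 6 shared at least 12 bases with the cassette, as did 2 of the 12 with Tus.

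For each effector and orientation, a join at the most used position is shown with the structure found most often there, in 2, 1, 2 and 4 joins in the order given, with bait in lower case and the cassette part, shared bases included, in capitals.
Tus leftward join at 3066: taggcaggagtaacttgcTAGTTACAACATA
Tus rightward join at 3226: aggcaggagtaacttgctAGTATGTTGTAA
I-SceI leftward join at 3265: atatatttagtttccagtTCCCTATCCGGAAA
I-SceI rightward join at 3265: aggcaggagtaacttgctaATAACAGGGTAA

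In the Tus leftward join, a whole bait end shares 1 base with the minus strand of Ter 1. The Tus rightward join is a blunt join of a whole bait end to Ter 6. The I-SceI leftward join shares 2 bases after a loss of 24 bait bases, and its cassette part begins at the first overhang base. The I-SceI rightward join connects a whole bait end with the whole overhang through 1 base counted as inserted. Structures at these positions were diverse: the 13 joins at 3066 had 10 combinations of bait end and overlap, and the 59 rightward I-SceI joins at 3265 with a called structure had 38.

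Runs C and D of the Tus table carried the same 5-base tag at the start of their reads, and run A carried another. Joins with the same position, orientation, far end and bait end were shared by 4 pairs between C and D, by 28 between A and C and by 6 between A and D. With C and D counted as 1 library, an alternative chosen after seeing the data, the pooled differences stay as they are by construction. Only the permutation of libraries can move, and its exact p for the rightward share of body joins was then 0.333, the smallest that 2 against 2 libraries allow.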

How the data were processed

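Junctions came from LAM-HTGTS libraries of genomic DNA, sequenced on a MiSeq, per the labels' protocols. The authors deposited 1 table per group with a position, orientation, alignment ends and read sequence for each junction, so the values are positions, with no counts. Per the submitters' processing notes, the tools and builds include Bowtie2 and mm9. Filters and removal of duplicates are not given in the sources used here. XbaI was used for blocking, per the labels, and the last XbaI site lay at 3618.

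The cassette and bait were rebuilt from the reads by repeated voting, because the reference sequence was not used here. The table coordinates hold 1 base more than the reads between Ter 3 and Ter 4. Bait parts were extended from a 10-bp seed and prey parts from a 12-bp seed. The caller was tested on simulated data. Structure was called for 821 of 824 Tus and 1141 of 1143 I-SceI body joins, and 676 of 688 and 821 of 833 array joins were placed in 1 repeat copy with a margin of 8 bases.

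Each of 12 shares was tested on pooled joins with Fisher's exact test, two-sided and Benjamini-Hochberg adjusted over the 12, and by a two-sided exact permutation test over libraries. Differences are Tus minus I-SceI. Features named were the Ter elements, the I-SceI site and cassette regions, the 5 most used position and orientation pairs, and the 5 most used microhomologies of 4 bp or more per table. The results named, the members and the lists were chosen with earlier results of these data known. The tables do not tie a run to a labelled replicate, and no label states that replicates came from separate cultures. The p-values over libraries therefore measure a spread that may be technical. Wilson intervals and Fisher tests cover counting error only, and they take joins as independent. When joins of the same position, orientation, far end and bait end were counted once per library, 824 of 824 Tus body joins remained. For I-SceI 1141 of 1143 remained. Joins that differ in these still share a library. Alternatives recounted repeated joins once, left out libraries, kept shared runs, moved the array window and changed the length limits. Analysis used Python 3.11, pandas 2.3.3, scipy 1.17.1, matplotlib 3.10.9 and R 4.3.3.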

Additional observations from a re-analysis of the deposited data

How the results depend on the processing

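Of 143 recomputed differences, 115 kept their direction and their side of the threshold, 21 kept their direction and no longer passed, and 7 changed sign. Among the 115, 12 merge Tus runs C and D, which cannot move a pooled difference. Keeping only shared runs and leaving out Tus library D use the same joins, so the 143 count those differences again. When joins of the same position, orientation, far end and bait end were counted once per library, all 12 differences kept their direction and their side of the threshold. That count kept 824 of 824 Tus and 1141 of 1143 I-SceI body joins. Only the body share, which also counts polyA joins, therefore had room to move, and the other differences were nearly fixed in advance. The rightward array difference was then -33.2 points, blunt joins -13.0, microhomology 14.4 and the left-of-array difference 9.19. Counting each position and orientation once per library removes the repeated use of positions at the I-SceI cut, also by joins that differ in far end or bait end. Under that count the rightward array difference was -5.36 points, the left-of-array difference 1.66, the orientation left of the array -17.2, microhomology 8.14 and bait loss -3.65. None of these passed. Blunt joins turned to 0.837 points, and the body share turned to 10.6 points, which passed. With the window ending at the last Ter element the rightward array difference turned to 6.09 points, blunt joins turned to 0.50, microhomology was 2.17 and bait loss -8.17, and none passed. Among reads reaching unique sequence beyond the array, blunt joins differed by -0.352 points and microhomology by 3.14, and neither passed. The rightward array difference was -72.3 points and bait loss -17.9, and both passed. That filter kept 373 of 378 rightward I-SceI array joins but only 71 of 454 leftward ones with a called structure. Leftward reads from the cut had to cross the Ter elements, so the I-SceI rightward share rose by construction. Bait loss may be selected by the filter as well, so neither value can be read as a larger effect. Between Ter 3 and the end of Ter 6, a stretch chosen after seeing the data, blunt joins differed by -4.77 points, microhomology by 7.60, bait loss by -0.415 and insertions by 0.0934, which is the opposite sign. Bait loss from 50 bp turned to 3.08 points. The orientation left of the array was -14.1 points in shared runs and -1.85 with the earlier window start. Leaving out 1 library at a time gave ranges of -23.8 to -14.1 points for that orientation, -8.77 to -6.45 for bait loss, -8.00 to -1.65 for the body share and -3.85 to 0.502 for insertions. Without Tus library A insertions changed sign. The causes were not tested beyond what each setting removes. No paired analysis was possible because the tables carry no replicate number to pair samples by. Blocking on the sequencing runs that both tables hold was possible: there the orientation left of the array no longer passed (odds ratio 0.536, adjusted exact p = 0.0857), and the other results kept their direction and their side of the threshold. Run D held only Tus joins, 148 in all.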
